A study of Mus musculus with 2 samples.

Results

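The 32 genes described here encode enzymes of fatty acid oxidation and proteins that build peroxisomes, chosen by name from a fixed list out of 55536 annotated genes in total RNA of the mouse adrenal gland. They comprise 2 acyl-CoA synthetases, 5 carnitine acyltransferases, 4 acyl-CoA dehydrogenases, 5 enzymes of the later steps of the cycle, 3 enzymes for unsaturated chains, 3 electron transfer proteins, 4 peroxisomal oxidation genes and 6 peroxins. The tissue came from adult male mice aged 8 to 10 months of a cross between 5xFAD and CAST mice. 5xFAD mice carry human amyloid precursor protein and presenilin transgenes with familial Alzheimer mutations, driven by a neuronal Thy1 promoter, while CAST is an inbred strain founded from wild mice. Both libraries, biological replicates 1 and 2, belonged to this 1 group, so no genotype, age or treatment could be compared and no p-value was computed. Their labels name separate biosamples but 1 shared donor entry, which leaves unknown whether the spread between libraries is one between animals.

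Long-chain fatty acids are first joined to coenzyme A by acyl-CoA synthetases, then carried into mitochondria as carnitine esters, and there shortened by a repeating cycle of oxidation, hydration, oxidation and thiolysis. Peroxisomes shorten very long and branched chains with a separate set of enzymes, and peroxins import those enzymes and multiply the organelle. The adrenal cortex stores cholesterol esters in lipid droplets and makes steroids in mitochondria.

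Many peroxisomal enzymes are imported by Pex5, the receptor that reads a short signal at the very end of a protein, usually serine or alanine, then lysine, then leucine. The ends of the coding sequences of 5 members found in or shared with peroxisomes are shown because they carry, or nearly carry, this signal. Bases are 5′ to 3′ from the GENCODE M21 transcripts, with the last codons before the stop codon in capitals.
Ehhadh: ggaccccatagcAGCAAACTGtga
Scp2: cagccgggcaaaGCTAAGCTGtga
Crat: aaccaccccaggGCCAAGCTCtga
Acox3: gacaggctaaagTCCCAGCTGtag
Eci2: gtctccagaaaaCCAAAGCTGtga
Codons TCN, AGC, AGT or GCN, then AAA or AAG, then CTN, TTA or TTG were searched at the end of each coding sequence. Ehhadh, Scp2 and Crat matched, which made 3 of the 32 genes by their leading complete coding transcript. Among 21549 protein-coding genes with a complete coding sequence, 37 matched by the longest one, or 0.172%. In Acox3 the second of these codons did not match, and in Eci2 the first did not. Acaa1a, the peroxisomal thiolase known to enter through an amino-terminal signal instead, matched at none of these codons. Of 66 further genes of the pathway, 6 matched, among them Hsd17b4, Ech1, Acot8, Gnpat and Mlycd. The gene lists were assembled from known functions, so these matches describe the genes and not the adrenal gland.

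Hadha and Hadhb encode the alpha and beta subunits of the mitochondrial trifunctional protein and lie head to head on chromosome 5 of mm10, Hadha at chr5:30118304-30155162 on the minus strand and Hadhb at chr5:30155248-30184593 on the plus strand. The stretch before the start of Hadhb is shown because the annotated starts of both genes lie in or near it. RefSeq places 272 bases between the starts, and its promoter windows, 250 bases before and 50 bases from each start, share 228 bases. The 250 bases before the start of Hadhb, chr5:30155003-30155252 in the plus direction (RefSeq, GRCm38.p6), have GGGCGG, the core of the GC box, in capitals on either strand, at 2 places.
Hadhb: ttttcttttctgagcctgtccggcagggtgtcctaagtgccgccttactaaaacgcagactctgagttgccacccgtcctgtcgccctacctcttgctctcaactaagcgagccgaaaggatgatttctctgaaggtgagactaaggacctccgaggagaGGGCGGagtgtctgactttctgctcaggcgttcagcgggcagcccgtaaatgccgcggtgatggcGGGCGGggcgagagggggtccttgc
Acsl1 has RefSeq starts in different places on chromosome 8. Both are shown because the TPM shares of its transcripts differed between the libraries, while its counts divided almost alike between the starts in both. The first line is chr8:46470787-46471036 and the second chr8:46490716-46490965, both on the plus strand, with GGGCGG on either strand in capitals.
Acsl1 first start: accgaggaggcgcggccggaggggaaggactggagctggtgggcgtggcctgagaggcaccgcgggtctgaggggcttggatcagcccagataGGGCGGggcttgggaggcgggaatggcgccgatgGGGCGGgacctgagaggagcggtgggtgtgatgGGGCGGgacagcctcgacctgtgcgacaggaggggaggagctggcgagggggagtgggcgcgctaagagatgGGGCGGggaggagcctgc
Acsl1 second start: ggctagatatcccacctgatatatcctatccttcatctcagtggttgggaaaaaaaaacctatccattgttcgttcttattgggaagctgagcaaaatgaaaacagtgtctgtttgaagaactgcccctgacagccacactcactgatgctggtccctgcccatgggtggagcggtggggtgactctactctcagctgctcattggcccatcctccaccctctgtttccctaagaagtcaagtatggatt
The first stretch held 4 such matches at a GC content of 72.0%, and the second held 0 at 48.4%. RefSeq windows were found for 27 of the 32 genes, and were not found for Cpt1b, Crat, Decr1, Acaa2 and Pex19. GGGCGG on either strand occurred in a window of 23 of these 27 (85.2%), against 38.2% of 27025 symbols with a window and 70.1% of 9669 detected protein-coding symbols. CCAAT occurred in 11 of the 27 (40.7%) and in 41.1% of all symbols. AAGGTCA, a short site of nuclear receptors, occurred in Acadm alone (5.38% of all symbols). TCAAGGTCA, the longer form bound by estrogen-related receptors, which contains AAGGTCA, occurred in 0 of 27 and in 0.466% of all symbols. A match describes letters in a window and says nothing of binding.

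All 32 genes were detected, meaning at least 1 TPM (transcript abundance, reads per length scaled to a common total) in both libraries, against 56.2% of 22028 protein-coding genes. Their median level was 43.8 TPM in replicate 1 and 47.6 TPM in replicate 2, or 3.69 ± 0.186 times that of detected protein-coding genes (mean ± SD, n = 2, as below). 28 of the 32 lay above the median of detected protein-coding genes and 14 in the top 10 percent. The genes and limits were chosen with earlier results of these data known, so these comparisons only describe the list. The 32 together held 0.184% and 0.183% of all TPM. By role, the later steps of the cycle had the highest median at 126 ± 5.99 TPM, followed by the dehydrogenases at 90.4 ± 1.52, the synthetases at 77.3 ± 3.17 and electron transfer at 69.0 ± 0.785. The enzymes for unsaturated chains followed at 44.2 ± 3.46 TPM, peroxisomal oxidation at 40.3 ± 0.725, the peroxins at 20.8 ± 1.496 and the carnitine acyltransferases at 17.5 ± 2.29. The median of the later steps was 6.07 ± 0.724 times that of the peroxins.

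**Figure D1:**
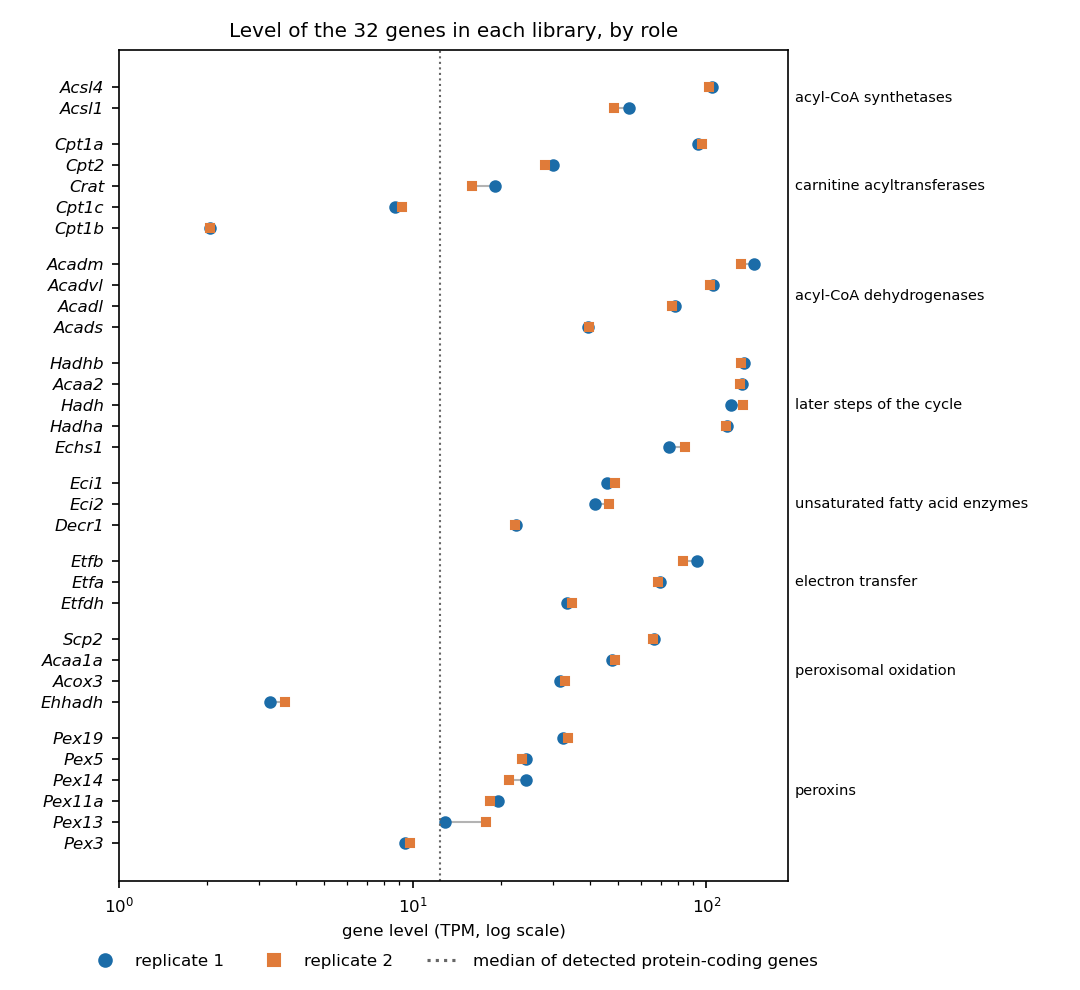
Level of each of the 32 genes in TPM on a log axis, grouped by role, with a circle for replicate 1 and a square for replicate 2. The dotted line is the median of detected protein-coding genes. Cpt1b and Ehhadh sit lowest, and most genes of the mitochondrial cycle lie far to the right of the line.

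Acyl-CoA synthetases activate the fatty acid. Acsl4, which prefers arachidonic acid and other polyunsaturated chains, was at 105 TPM in replicate 1 and 102 TPM in replicate 2. Acsl1, a broad long-chain synthetase abundant in fat, liver and heart, was at 54.5 and 48.5 TPM. Both libraries thus had Acsl4 about 2.01 ± 0.123 times as high as Acsl1, and 1.37 ± 0.0245 times in a second quantification deposited for the same libraries.

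Carnitine acyltransferases move the chain into mitochondria, and Cpt1 on the outer membrane is the controlled step. Cpt1a, the form of liver and many other tissues, was at 93.7 TPM in replicate 1 and 96.8 TPM in replicate 2. Cpt1b, the muscle form, was at 2.04 TPM in each. Cpt1c, a form best known from neurons, was at 8.72 and 9.21 TPM. In RNA Cpt1a was therefore the highest of these forms, at 46.7 ± 1.09 times Cpt1b and 10.6 ± 0.162 times Cpt1c. Their enzyme activity and place in the cell were not measured. The small SD against Cpt1b rests on equal TPM of Cpt1b from unequal counts, 142 in replicate 1 and 88 in replicate 2. In the second quantification Cpt1a was 40.8 and 52.2 times Cpt1b, so the size of this ratio is known only roughly. Cpt2, the inner membrane enzyme that returns the chain to coenzyme A, was at 30.0 and 28.3 TPM. Crat, which exchanges short chains on carnitine in mitochondria and peroxisomes, was at 19.1 and 15.9 TPM. Its libraries lay farther apart than those of Cpt1a or Cpt2.

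The acyl-CoA dehydrogenases take the first oxidation and differ in chain length. Acadm, the medium-chain enzyme, was at 144.8 TPM in replicate 1 and 130.6 TPM in replicate 2. In gene TPM it was the highest of the 32 genes in replicate 1, while in replicate 2 Hadh and Hadhb were above it. Acadvl, the very-long-chain enzyme of the inner membrane, was at 105 and 102 TPM. Acadl, the long-chain enzyme, was at 77.9 and 76.2 TPM. In gene TPM both libraries ordered these enzymes alike, and in neither did one overlap with the next. Transcripts of types other than protein-coding held 36.1% and 31.95% of Acadm's TPM, 22.7% and 26.1% of Acadvl's, and 0% and 3.12% of Acadl's. Of the leading coding transcripts, Acadm-201 was at 92.1 and 88.3 TPM, below Hadh-201 at 119.3 and 130.8. Acadvl-202 at 79.5 and 74.75 TPM overlapped with Acadl-201 at 77.9 and 73.8, so that part of the order rests on the other transcripts. Acads, the short-chain enzyme, was lowest at 39.6 and 39.8 TPM, so that Acadm stood 3.47 ± 0.262 times above it.

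Apart from Echs1, the genes of the later steps lay close together in level. Echs1, the short-chain enoyl-CoA hydratase, was at 74.4 TPM in replicate 1 and 84.3 TPM in replicate 2. Hadh, the short-chain hydroxyacyl-CoA dehydrogenase, was at 121.6 and 133.0 TPM. Acaa2, the mitochondrial thiolase, was at 131.9 and 130.1 TPM. Hadh and Acaa2 overlapped, while Echs1 was below both in each library. For the trifunctional protein, Hadha was at 117.8 and 116.2 TPM and Hadhb at 133.7 and 130.7 TPM. The ratio of Hadha to Hadhb was 0.882 and 0.890, and 1.06 and 0.892 in the second quantification, so the order of the subunits in replicate 1 depended on the quantifier.

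Unsaturated chains need further enzymes to move double bonds. Eci1, a mitochondrial enoyl-CoA isomerase, was at 46.0 TPM in replicate 1 and 48.8 TPM in replicate 2. Eci2, an isomerase found in both mitochondria and peroxisomes, was at 41.7 and 46.6 TPM. These libraries overlapped, and the ratio of Eci1 to Eci2 was 1.07 ± 0.0388. Decr1, the mitochondrial dienoyl-CoA reductase, was lower at 22.4 and 22.3 TPM.

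Electrons leave the dehydrogenases through the electron transfer flavoprotein and its oxidoreductase. Etfa, its alpha subunit, was at 69.5 TPM in replicate 1 and 68.4 TPM in replicate 2. Etfb, its beta subunit, was at 92.8 and 83.0 TPM. The alpha subunit was lower in both libraries, at 0.787 ± 0.0530 times the beta subunit. Etfdh, which passes the electrons to ubiquinone, was at 33.4 and 34.9 TPM.

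In peroxisomal oxidation, Acox3 acts first on branched chains and was at 31.8 TPM in replicate 1 and 32.9 TPM in replicate 2. Ehhadh, the bifunctional hydratase and dehydrogenase best known from liver, was at 3.28 and 3.68 TPM. Its place as the second lowest of the 32 held in both libraries. Acaa1a, the thiolase, was at 47.8 and 48.7 TPM. Its near-identical copy Acaa1b was at 1.77 and 1.34 TPM, and the split of reads between such copies is uncertain. Scp2, which encodes both a branched-chain thiolase and a lipid carrier, was the highest of the 4 at 66.2 and 65.8 TPM.

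Peroxins were lower than most of the enzymes. Pex19, the cytosolic chaperone of membrane proteins, was at 32.4 TPM in replicate 1 and 33.7 TPM in replicate 2. Pex3, its docking partner in the membrane, was the lowest of the 6 at 9.43 and 9.80 TPM. The libraries of Pex3 and Pex19 did not overlap. Pex5, the import receptor, was at 24.3 and 23.5 TPM. Pex14, to which it docks, was at 24.3 and 21.2 TPM, a ratio of Pex5 to Pex14 of 1.06 ± 0.0744. Pex13, the other docking protein, was at 12.9 and 17.8 TPM, which was the widest relative gap in TPM among the 32. Pex11a, which elongates peroxisomes before they divide, was at 19.5 and 18.3 TPM. In the order of all 32 by level, 15 of 31 neighbouring pairs overlapped between libraries.

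Between the libraries, counts of most of the 32 genes differed little. Ratios are log2 of expected counts in replicate 2 over replicate 1, scaled by TMM, and their standard errors cover counting only. The median ratio was -0.03 over the 32, against 0.00 over the 16383 genes whose mean count was 20 or more. The quartiles were -0.08 and 0.04 over the 32, against -0.13 and 0.12 over the 16383. Within 0.15 of 0 were 27 of the 32. Both quartiles over the 16383 lay there too, and their exact share was not counted. The 16383 reach down to a mean count of 20, where counting error is larger, so these spreads are not matched for count. A limit of 0.32 on this scale was used to call a gene different. Of the 32, 0 were past the limit as higher in replicate 2, against 8.56% of all genes, and 2 were past it as lower, against 10.7%. Among 12326 detected protein-coding genes with such counts, 601 were past it as higher and 702 as lower. None of the 32 reached 2-fold, which 1.68% of all genes did. The 2 were Acsl1 and Cpt1b.

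Acsl1 (chr8:46471037-46536051, plus strand) had 5251 counts in replicate 1 and 3592 in replicate 2, a log2 ratio of -0.40 (counting SE 0.0312). The second quantification gave the same size, at -0.40. Cpt1b (chr15:89416405-89425863, minus strand) had 142 and 88 counts, a ratio of -0.54 (counting SE 0.195). Its second quantification gave -0.09. Cpt1b shares 2744 exonic bases with Gm44502, an annotated gene on the same strand that overlaps it, named here after its values were seen. Gm44502 had 0 counts in both gene tables, while the second quantifier placed 58 and 0 counts there beside 133 and 110 on Cpt1b. The split between these genes is uncertain, and so is the fold of Cpt1b.

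The lowest of the others was Crat, with 1371 and 1065 counts and a ratio of -0.22. Etfb (-0.15), Pex14 (-0.15), Pex5 (-0.12) and Acadm (-0.12) were also lower in replicate 2. Each of these stayed inside the limit. At the other end stood Echs1 (0.18), Ehhadh (0.15), Acox3 (0.13), Pex19 (0.12) and Hadh (0.11). Ehhadh had 271 counts in each library and a counting SE of 0.124, so its ratio is close to its counting error. Counting error is not the whole spread. The coefficient of variation estimated over genes between these libraries, 8.86%, corresponds to an SD of 0.181 on this scale. Of the 32 genes, only Acsl1, Cpt1b and Crat lay beyond that SD. Exons of 15 of the 32 genes overlapped an exon of another annotated gene, 2 on the same strand and 13 on the opposite strand. Whether the counting used strand is not given in the sources used here, so reads from such overlaps may be shared. Myd88 with Acaa1a, Dvl2 with Acadvl and Dolpp1 with Crat are examples from these overlaps, chosen after their values were seen.

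Markers of white fat cells moved in the direction of Acsl1. All 8 were lower in replicate 2, 7 of them past the limit, and their levels summed to 757 and 468 TPM in replicates 1 and 2. Car3, a carbonic anhydrase, was at 230.9 and 145.7 TPM and Fabp4, the fat cell fatty acid carrier, at 223.8 and 127.7 TPM, and 0 of the 8 were at 0. The part of fat cells in the ratios of Acsl1, Cpt1b and Crat was not tested. In bulk tissue fewer cells of a type and less RNA per cell cannot be told apart. Of 6 brown fat markers, 4 were detected, with summed levels of 53.2 and 47.9 TPM, led by Cox8b at 23.8 and 25.7 TPM and Cox7a1 at 21.2 and 17.6 TPM. The other 2 detected ones were past the limit as lower in replicate 2, Ucp1 with 172 and 72 counts (ratio -1.10) and Cidea with 118 and 68 counts (ratio -0.64). Skeletal muscle markers, of interest for Cpt1b, summed to 1.80 and 1.35 TPM over 5 genes, with Mylpf (0.90 and 0.51 TPM) and Acta1 (0.44 and 0.46 TPM) highest and Myh4 at 0 counts in both. Liver markers summed to 0.97 and 0.64 TPM, with Alb (0.72 and 0.34 TPM) and Ttr (0.16 and 0.22 TPM) highest, and kidney markers to 2.33 and 1.40 TPM, with Aqp2 (1.69 and 1.01 TPM) and Miox (0.47 and 0.31 TPM) highest. For the adrenal label itself, 5 of 5 cortical markers had mean levels between 87.1 and 5704 TPM, led by Star and Hsd3b1, and 5 of 5 chromaffin markers between 183 and 861 TPM, led by Chga and Chgb. The chromaffin markers summed to 1981 TPM in replicate 1 and 2289 TPM in replicate 2, with 5 of 5 higher in replicate 2 (4 with spike-in scaling). Pnmt, the adrenaline-forming enzyme, was past the limit with 4426 and 5916 counts (ratio 0.57). The part of chromaffin cells in the ratios of the 32 genes was not tested.

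**Figure D2:**
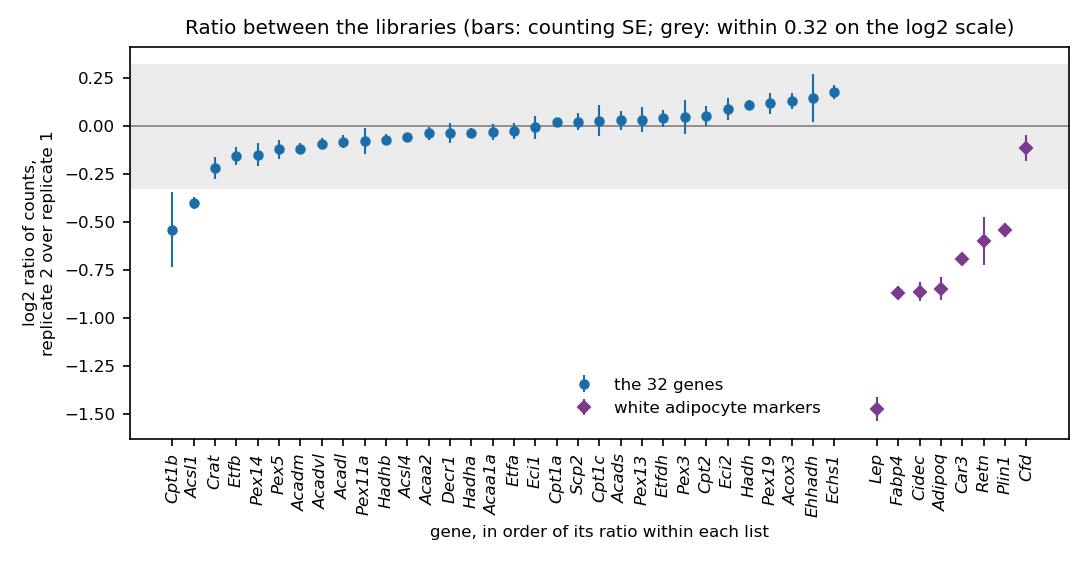
Log2 ratio of counts, replicate 2 over replicate 1, for the 32 genes and for 8 white adipocyte markers, each list in order of its ratio, with bars of 1 counting SE. The grey band spans 0.32 either way. Acsl1 and Cpt1b lie below the band, and 7 of the 8 markers do too.

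For some genes TPM and counts told different things, because TPM divides by a length that depends on which transcripts the reads were given to. The log2 ratios from TPM and from counts differed by at least 0.2 for 3 of the 32, namely Acsl1, Cpt1b and Pex13. Pex13 (chr11:23646479-23665959, minus strand) had 1030 and 952 counts, a ratio of 0.03, while its TPM ratio was 0.47. Its full-length transcript Pex13-201 held 66.1% of the gene's TPM in replicate 1 and 47.4% in replicate 2, and Pex13-203, of 367 bases and annotated as a target of nonsense-mediated decay, 11.7% and 22.4%. Pex13-203 rested on 11.5 and 27.2 counts. The second quantifier gave Pex13-201 30.6% and 31.1%, and Pex13-203 led there with 44.9% and 46.5%. The authors' deposited intervals for these TPM values ran from 10.8 to 15.7 and from 14.6 to 21.1 and overlapped. In the second quantification the gene was at 23.7 and 23.9 TPM, and the gap was gone.

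Cpt1b-201, the full coding transcript, held 83.9% and 53.6% of Cpt1b's TPM. Cpt1b-202, a retained intron transcript of 339 bases, held 0% and 21.1%, the latter from 2.63 counts. Equal TPM of Cpt1b in both libraries thus went with unequal counts. Acsl1-201, which begins at the first start, held 79.9% and 69.5% of Acsl1's TPM. Acsl1-205, a partial coding transcript of 368 bases at the second start, held 5.09% and 19.3%, from 21.3 and 64.2 counts. Acsl1-203, a full coding transcript from the same start, had 225 and 75.04 counts. The second quantifier gave Acsl1-201 49.6% and 33.8% of TPM. It gave Acsl1-203 11.1% and 13.9%, against 4.33% and 1.82% in the first, so the direction between libraries turned for Acsl1-203. By counts in the first quantification the coding transcripts of the first start held 90.3% and 91.5% of the gene, and those of later starts 4.96% and 4.33%. The share of the later starts thus differed between libraries by TPM and hardly by counts.

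The transcripts of Scp2 (chr4:108043839-108144998, minus strand) divide by start as well. Scp2-201, with 547 codons, encodes the thiolase joined to the lipid carrier and had 1165 and 1128 counts. Scp2-202, with 143 codons, begins 47113 bases further along, encodes the carrier alone, and had 439 and 460 counts. Both end in the same last codons, those shown above for Scp2. By TPM the short form was higher, at 34.5% and 40.7% of the gene against 24.2% and 26.4%, and by counts the long form was. The second quantifier also had the short form higher in TPM, at 45.1% and 31.5% against 21.3% and 19.2%.

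Hadha was the 1 gene of the 32 whose leading transcript in the first quantification is not of the protein-coding type. In the second there were 4 such genes, Hadha, Hadhb, Eci2 and Pex13. For Pex13 it was the decay target Pex13-203, which has 123 annotated coding bases. Hadha-201, a processed transcript of 2552 bases, held 62.3% and 65.4% of its TPM, and Hadha-205, the coding transcript of 4017 bases, 21.3% and 19.4%. The sequence of Hadha-201 contains the first 1970 and the last 171 of the 2292 coding bases in unbroken runs, stop codon included. The transcripts thus share most of their coding bases, and reads from those bases could be given to either. The second quantifier had Hadha-201 at 49.98% and 55.8%. For Hadhb the leading transcript changed between libraries, with Hadhb-201 at 34.6% and 37.2% and Hadhb-203, which has a coding sequence of the same length, at 35.0% and 30.4%. A retained intron transcript of 507 bases, Hadhb-208, held 26.9% and 28.3%. In the second quantification Hadhb-201 held 3.53% and 14.3%, Hadhb-203 37.2% and 1.59%, and Hadhb-208 36.0% and 39.1%. The division of Hadhb among its transcripts therefore depended on the quantifier.

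Over the 32 genes the leading transcript was the same in both libraries for 31, and the same in both quantifications for 28, the others being Crat, Hadhb, Eci2 and Pex13. In the first quantification the median share of the leading transcript was 74.2% in replicate 1 and 70.4% in replicate 2. Above 90% in both libraries were 8 genes, among them Ehhadh, Acadl, Hadh, Etfa and Echs1. Transcripts of any type other than protein-coding, decay targets included, held a median of 9.66% and 11.4% of TPM and 6.12% and 7.84% of counts. The highest such shares of counts after Hadha were those of Acaa1a, 34.1% and 36.2%, and Cpt1c, 29.3% and 28.9%, nearly all of them retained intron transcripts. The libraries were made from total RNA, which includes unspliced RNA. Levels in the second quantification were within 0.32 of the gene table on the log2 scale for 29 of 32 genes, with Pex13 at 1.55 and Acsl1 at 1.26 times the gene table's mean and Cpt2 at 0.758 times.

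**Figure D3:**
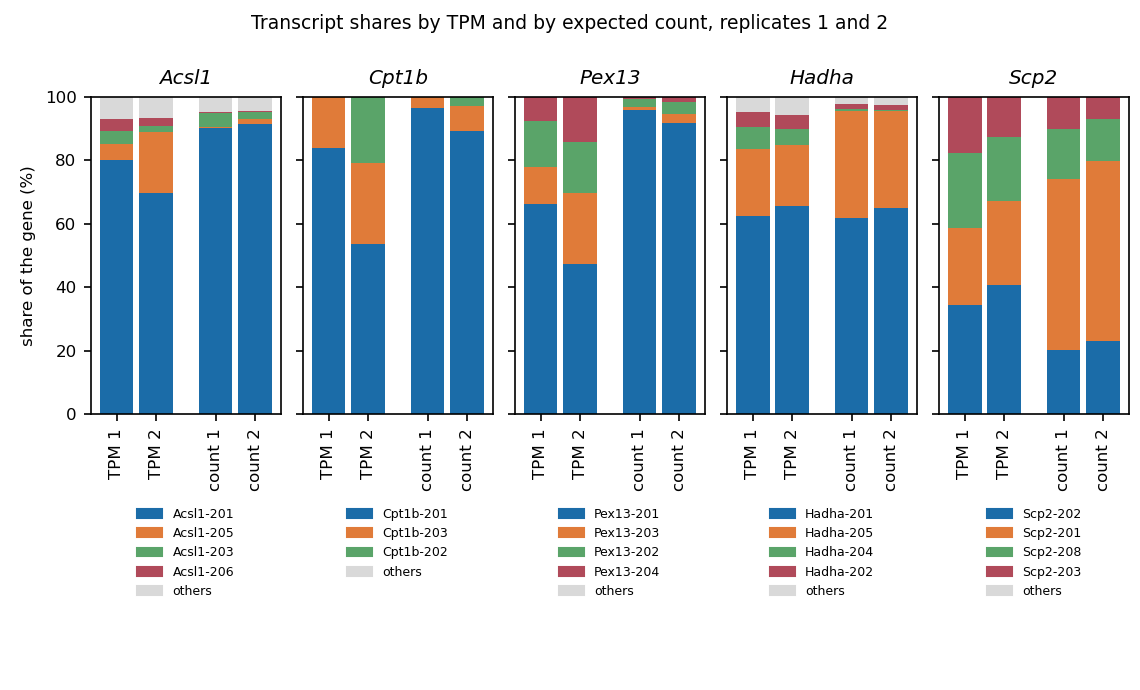
Share of each gene held by its 4 leading transcripts (3 for Cpt1b), in percent, by TPM and by expected count in replicates 1 and 2. The TPM bars of Acsl1, Cpt1b and Pex13 differ between libraries more than their count bars, and Scp2-202 leads by TPM while Scp2-201 leads by count.

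**Figure D4:**
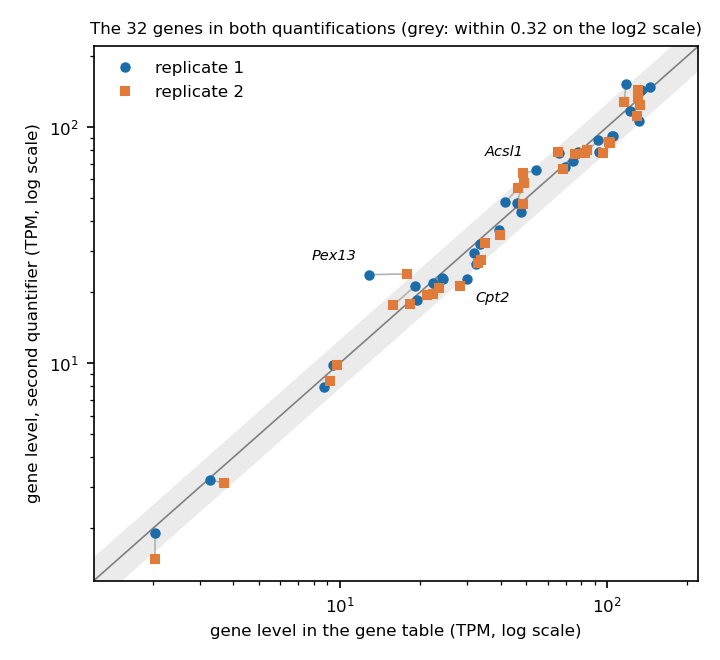
Level of the 32 genes in the gene table and in the second quantification, in TPM on log axes, with a line joining the libraries of a gene. The grey band spans 0.32 on the log2 scale either way, and the labelled genes Pex13, Acsl1 and Cpt2 have means outside it.

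Among 66 further genes of these pathways, 62 were detected. Of the 64 that averaged 20 or more counts, 4 were past the limit as higher, against 8.56% of all genes. As lower in replicate 2 were 8, against 10.7%. Among 12326 detected protein-coding genes with such counts, 601 were past it as higher and 702 as lower. The median ratio of the 64 was 0.03. Among the further genes listed under peroxisomal oxidation, Ech1, a dienoyl-CoA isomerase, was at 131.6 TPM in replicate 1 and 120.8 TPM in replicate 2. That is the range of the later steps of the mitochondrial cycle, and where in the cell its protein lies was not measured. Phyh, which starts the breakdown of phytanic acid, was at 54.8 and 59.5 TPM. Acox2, an oxidase that acts on bile acid intermediates and branched chains, had 0 counts in both libraries. Amacr, the racemase for branched chains, had 236 and 270 counts (ratio 0.34), and Acaa1b 81 and 55 (ratio -0.41, counting SE 0.251). Hsd17b4, the bifunctional enzyme that acts beside Ehhadh, was 8.26 ± 1.254 times as high as Ehhadh.

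The ABCD transporters are best known for bringing acyl-CoA into peroxisomes. Abcd3 was at 23.9 TPM in replicate 1 and 22.4 TPM in replicate 2. Abcd4, a relative known from lysosomes, was at 5.28 and 5.25 TPM. Abcd2 alone of the 4 passed the limit, with 623 and 337 counts (ratio -0.74). Of 11 further peroxins, Pex16 was at 20.5 and 24.96 TPM, Pex2 at 21.04 and 19.5 TPM and Pex6 at 18.3 and 19.9 TPM. Their median ratio was 0.20 with 9 of 11 above 0 (8 with spike-in scaling), while 3 of the 6 peroxins among the 32 were above 0 (1 with spike-in scaling). This difference was not tested, and Pex10 passed the limit (295 and 347 counts, ratio 0.38). Ether lipid synthesis, which begins in peroxisomes, was led by Gnpat at 34.6 and 35.7 TPM, Far1 at 20.9 and 20.8 TPM and Agps at 12.7 and 12.9 TPM, and 0 of its 4 genes passed the limit.

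In mitochondria, Ivd, of leucine breakdown, was at 81.3 TPM in replicate 1 and 94.8 TPM in replicate 2. Acadsb, for short branched chains, was at 51.0 and 56.5 TPM, and Acad8, of valine breakdown, at 28.6 and 29.4 TPM. Acacb, whose product malonyl-CoA inhibits Cpt1, had 4364 and 3013 counts (ratio -0.39). Among uptake and activation genes, Cd36, a fatty acid transporter, was at 77.3 and 59.5 TPM (ratio -0.45). Slc27a1, another transporter, was at 45.8 and 48.6 TPM and Acsl5, a synthetase, at 15.3 and 14.1 TPM. Fabp3, a fatty acid carrier of muscle and brown fat, had 67 and 44 counts (ratio -0.45, counting SE 0.279), and Slc27a2 was below detection at 0.28 and 0.50 TPM.

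Ketone body genes were led by Oxct1, which uses ketone bodies, at 35.2 TPM in replicate 1 and 35.9 TPM in replicate 2. Acat1, a mitochondrial thiolase of ketone bodies, was at 24.2 and 28.4 TPM. Bdh1, which interconverts ketone bodies, was past the limit as higher in replicate 2, with 86 and 125 counts (ratio 0.68). Of 8 regulators, Nrip1, a corepressor of metabolic genes, was at 46.5 and 34.4 TPM (ratio -0.38). Ppard, a nuclear receptor for fatty acids, was at 15.9 and 19.4 TPM and Rxra, its partner, at 16.8 and 17.7 TPM. Pparg, the regulator of fat cell formation, had 231 and 148 counts (ratio -0.49). Ppargc1a, the coactivator of mitochondrial genes, had 71 and 22 counts (ratio -1.52) and was below 1 TPM in replicate 2, as was Ppargc1b at 1.15 and 0.85 TPM. Past the limit as lower were 8 of the 64 further genes with a ratio, against 10.7% of all genes. They were Acaa1b, Abcd2, Acacb, Cd36, Fabp3, Pparg, Ppargc1a and Nrip1. Their direction is that of Acsl1 and of the white fat markers, and the part of fat cells in them was not tested. In the second quantification Acaa1b was inside the limit (-0.06), as were Amacr (0.30) and Pex10 (0.26) among the higher ones.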

How the data were processed

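Total RNA reduced of ribosomal RNA, 300 ng per library, was made into directional libraries with ERCC spike-ins, per the labels. The authors deposited expected counts, TPM, FPKM and, per transcript, the percent of its gene, made against mm10 with GENCODE M21 per the file headers and the notes deposited with the libraries. TPM interval bounds, a signal in TPM units in the deposited gene tables, were used for Pex13 only. A second deposited table gave estimated counts and TPM per transcript, summed here per gene. The aligner and the quantifier were not given in the sources used here.

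Annotated genes held 29204618 counts in replicate 1 and 26322446 in replicate 2. Spike-ins (0.468% and 0.504%) and 26248 entries with numeric identifiers stayed out. Expected counts were rounded, scaled by TMM in edgeR 4.0.16 (R 4.3.3) with a prior count of 0.5, and compared at a mean count of at least 20. The common coefficient of variation between libraries was 8.86%. DESeq2 1.42.0 size factors were an alternative. The TPM ratio used a pseudocount of 0.1. The procedure was tested on simulated data. Python 3.11.15, numpy 2.4.6, pandas 2.3.3 and matplotlib 3.10.9 were used. Reads are not independent molecules, and CAST alleles were counted against mm10.

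The members, lists, limits and motifs were chosen with earlier results of these data known. Every member is named. Of each further list the text names its 3 highest genes, those not detected and those past 0.32 on the log2 scale, and of each marker list the 2 highest, with exceptions said in place. Some genes taken by this rule are not reported here. The ratio of the bifunctional enzymes, motif matches and gene overlaps were added as descriptions.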

Additional observations from a re-analysis of the deposited data

How the results depend on the processing

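Levels are relative to a total that includes entries other than nuclear protein-coding genes. With TPM rescaled over nuclear protein-coding genes alone, the median was 136.3 over the 32 genes, 230.8 for synthetases, 52.3 for carnitine acyltransferases, 269.6 for dehydrogenases, 375.4 for later steps, 131.7 for the unsaturated chain enzymes, 205.9 for electron transfer, 120.3 for peroxisomal oxidation and 62.15 for peroxins. In FPKM the medians of dehydrogenases, electron transfer and peroxisomal oxidation were 87.8, 67.03 and 39.16. With the second quantifier the median was 48.48 TPM over the 32 genes, 83.2 for dehydrogenases, 51.47 for unsaturated chain enzymes, 67.05 for electron transfer and 36.76 for peroxisomal oxidation. It also gave ratios of 0.978 for Hadha to Hadhb, 19.7 for Acaa1a to Acaa1b and 1.02 for Eci1 to Eci2, a median leading share of 66.5%, and 1 gene (Acsl1) past the limit as lower in replicate 2. At limits of 1.5-fold and 2-fold 0 genes were lower. Scaling by spike-ins moved the median of all genes by -0.10 and that of the 32 genes to -0.13. All 32 genes were detected at 0.5 TPM, with the second quantifier and in each library alone, and 30 of 32 at 5 TPM. Leaving out a library leaves no ratio, and every level and pair ratio then lay within 1 SD of its mean by construction. No paired analysis was possible because there is 1 group. With 2 libraries of 1 label the spread is known only roughly, and Cpt1b and Ehhadh rest on under 300 counts a library.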
